A study of Bos taurus with 6 samples.

Results

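RAB GTPases, VPS and sorting nexin proteins, syntaxins and VAMPs were followed in the longissimus dorsi, the long loin muscle, of Chinese Red Steppe bulls, some aged 1 month and some 24 months. Members were the genes on the array whose symbol begins with RAB, VPS, SNX, STX or VAMP and a number, and 101 of the 9155 genes with a symbol of their own met that name rule. A gene was tested when a probe set of it was called present, that is above background by the authors' detection call, on at least 3 of the 6 arrays, which left 79 of 6423 tested genes. Each of the 79 genes is represented by its brightest tested probe set. They were 25 RAB GTPases, 4 RAB partner proteins that share the name but are not GTPases, 21 VPS genes, 14 SNX genes, 10 STX genes and 5 VAMP genes. The tissue came from 18 male animals, 9 of each age, on a standard diet, with no treatment in either group, so age is what differs by label. RNA of 3 bulls was mixed for each array, so each age has 3 pools. The calves' pools carry the numbers 1, 2 and 3 and those of the older bulls 2, 3 and 4. The spread between pools is the only error measured here, since single bulls were not hybridised, and values are from 3 pools per age throughout.

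Membrane proteins move between the compartments of a cell in vesicles. RAB GTPases mark each compartment and recruit the factors that carry and tether vesicles there, and they switch between an active form bound to GTP and an inactive form bound to GDP. Proteins named VPS, first found in yeast as mutants in sorting to the vacuole, form the complexes that sort and fuse endosomes, and sorting nexins bind endosomal lipids and bend or coat the membrane. Syntaxins and VAMPs are SNARE proteins on the target and vesicle side, and their pairing drives fusion. In muscle fibres this machinery carries the glucose transporter GLUT4 to the surface in answer to insulin and contraction, repairs the surface membrane and feeds lysosomes and autophagosomes.

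The 12 skeletal fibre markers on the array, among them ACTA1, CKM and DES, were called present on every array, so the defining markers of the labelled tissue were there. Their summed signal was 70162 to 73940 at 1 month and 98681 to 99357 at 24 months, and 5 of the 12 were called higher. Summed endothelial markers were 1683 to 2067 at 1 month and 1171 to 1303 at 24 months, with 2 of 6 tested markers called lower and KDR, TIE1 and VWF without a present call on any array. Summed fibroblast markers were 25438 in 1-month pool 1, 7278 and 8844 in the other 1-month pools, and 6363 to 8164 at 24 months. Adipocyte markers were likewise highest in 1-month pool 1, at 4583, against 1501 and 1628 in the other calves' pools and 2272 to 2835 in the older bulls. Of 7 tested adipocyte markers 2, CIDEA and CFD, were called higher, the median change was 0.73, and LEP had no present call. Leukocyte markers lay between 541 and 916 at 1 month and between 676 and 736 at 24 months, and smooth muscle and pericyte markers between 1237 and 3217 and between 1356 and 1764. Nerve markers lay between 628 and 1193 at 1 month and between 1013 and 1127 at 24 months. Erythroid markers were 458 to 4445 at 1 month and 276 to 321 at 24 months. The log2 ratio of 3' to 5' actin signal, which rises with RNA degradation, was 0.67 ± 0.20 (SD) in the calves and 0.24 ± 0.02 (SD) in the older bulls, without overlap (two-sided exact permutation p = 0.1, the smallest that 3 against 3 pools allow). The same ratio for GAPDH was 0.33 ± 0.07 (SD) in the calves and 0.11 ± 0.03 (SD) in the older bulls. Present calls covered 50.3 ± 1.9% (SD) of probe sets in the calves and 55.4 ± 0.8% (SD) in the older bulls. Neither measure overlapped between the ages (exact permutation p = 0.1 for each). In bulk tissue, fewer cells of a type and less RNA per cell cannot be told apart. The part of the cell mixture in the member results was not tested, and fits with the actin ratio as a covariate are given beside them.

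At 24 months 14 of the 79 genes were higher and 0 were lower. They were RAB5B, RAB11B, RAB12, RAB22A and RAB31, the VPS genes VPS28 and VPS37A, the sorting nexins SNX6, SNX10 and SNX17, the syntaxins STX4, STX17 and STX18, and VAMP7. Their changes ran from 0.54 for RAB11B to 1.11 for SNX6, in log2 units with the calves subtracted from the older bulls. This is 17.7% higher and 0% lower, beside 11.3% higher and 5.78% lower among all tested genes. Calls are at an adjusted p under 0.05 in limma, Benjamini-Hochberg adjusted over all 13204 tested probe sets, and a figure after ± is that fit's standard error, except where SD is written. At an unadjusted p under 0.05 in the same fit, 22 of the 79 members were higher and 5 lower. Of all 6423 tested genes, 1282 were higher and 892 lower at that threshold. The median change of the 79 genes was 0.16, and that of all tested genes was 0.03.

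The count of calls depended on the arrays. Without 24-month pool 2, 3 or 4, the members called higher numbered 1, 1 and 2, and SNX6 was the gene called in all 6 fits with an array left out. RAB31 was also called without 24-month pool 4. Without 1-month pool 1, 2 or 3 the rises numbered 18, 10 and 15, of which 11, 10 and 13 were among the 14. The falls numbered 0, 2 and 6, namely SNX2 and STX5 without pool 2, and RAB8A, RAB30, SNX7, STX8, VAMP5 and VAMP8 without pool 3. The share of all tested genes called higher moved with them, to between 2.54% and 3.11% without a 24-month pool and between 9.34% and 15.1% without a 1-month pool. Of all tested genes 6.62%, 6.97% and 9.03% were called lower without 1-month pool 1, 2 or 3. Without a 24-month pool that share was 0.778% to 0.981%. With the actin ratio, which itself separates the ages, as a covariate, 5 members were higher and 1, VPS37B, was lower. STX18 was the gene shared with the 14, and the other rises were RAB26, RAB6A, SNX7 and VAMP3. Without the covariate SNX7 had a change of -0.54, in the opposite direction. In the fit with the covariate 5.01% of all tested genes were higher and 3.35% lower. A second deposited table of the same arrays gave 5 rises, or 7 after quantile normalization, of which 4 and 6 were among the 14. It gave 1 fall in each form, RAB1A and RAB18. Of all tested genes it gave 3.74% higher and 4.56% lower as deposited, and 6.27% and 5.53% after quantile normalization.

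**Figure D1:**
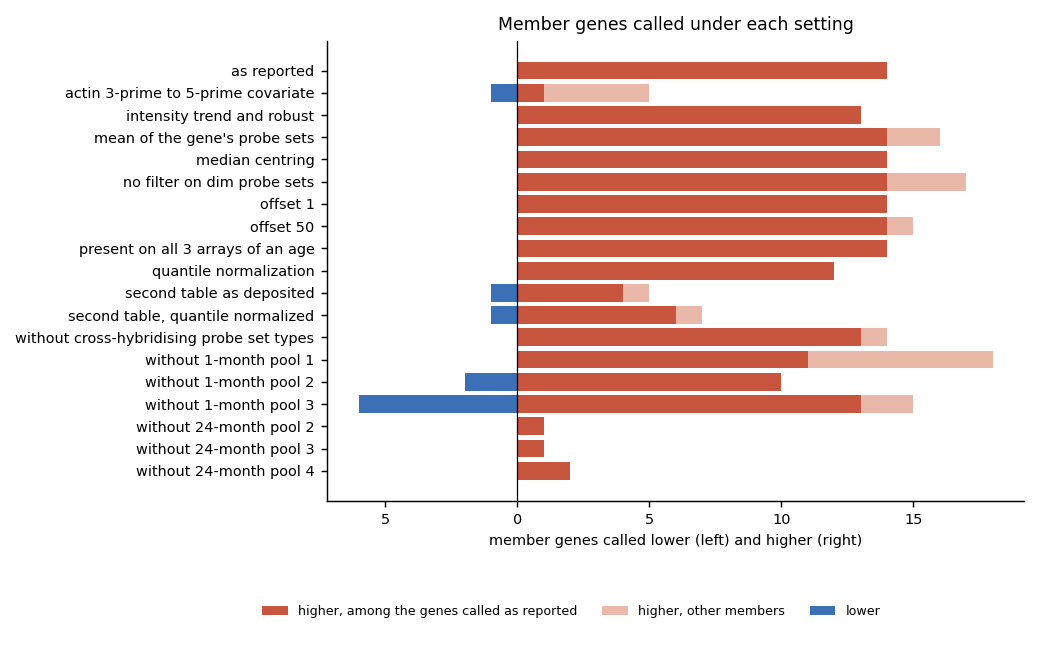
Number of member genes called lower (bars to the left of 0) and higher (bars to the right) at 24 months in limma under each setting, with dark bars for genes among the 14 called as reported. Leaving out a 24-month pool brought the rises to 1 or 2, and leaving out a 1-month pool gave 10 to 18.

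On the brightest probe sets the classes were alike in having rises and no falls, apart from the 4 RAB partner proteins. Of these 4, 0 passed in limma, also at an unadjusted p under 0.05. Rises made up 5 of 25 RAB GTPases, 2 of 21 VPS genes, 3 of 14 SNX genes, 3 of 10 STX genes and 1 of 5 VAMP genes. Class medians were 0.10, 0.21, 0.10, 0.01 and 0.14 in the same order, and 0.19 for the partner proteins. The STX genes had the lowest median and 30% of them called, and the VPS genes the highest median and 9.52% called. The VPS median was the value of VPS13D, which had no present call in the calves and passed the filter through the older bulls. The 24-month pools all lay above the 1-month pools for 23 members and all below for 7, which is 29.1% and 8.86% of them. Among all tested genes the shares were 23.8% and 18.1%. VPS13D and SNX11, among those above, and RAB11FIP2, among those below, passed the filter through the older bulls alone. No test between classes was made, since genes are not replicates of an age.

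**Figure D2:**
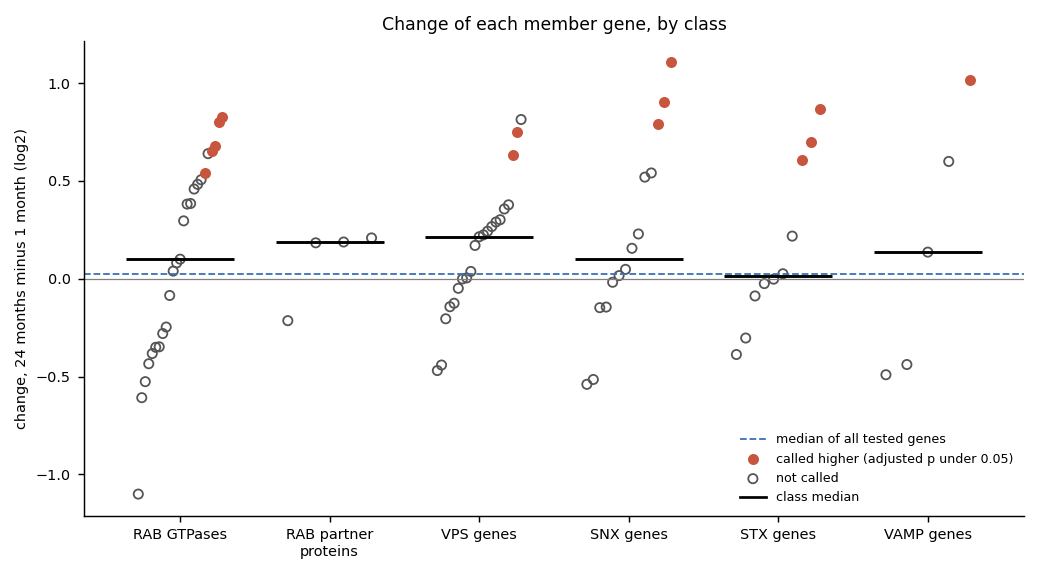
Change of each of the 79 genes between the ages (24 months minus 1 month, log2), by class, with filled points for genes called higher, black bars for class medians and a dashed line for the median of all tested genes, 0.03. Filled points appear in every class but the RAB partner proteins, and the lowest point is RAB34 at -1.10.

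Of the 5 RABs of early endosomes, the first sorting station after uptake from the surface, 3 rose. RAB5B, an isoform of the RAB5 that governs early endosome fusion, had signals of 581, 472 and 624 at 1 month and 1069, 941 and 984 at 24 months. Every 24-month pool lay above every 1-month pool, and the change was 0.82 ± 0.15 (adjusted p = 0.0134). In the second table of the same arrays RAB5B instead gave -0.16 as deposited and -0.08 after quantile normalization, neither of them called. RAB31, which moves cargo between the Golgi and endosomes, gave 139.8, 128 and 140.5 at 1 month and 266, 256 and 227 at 24 months. Its 1-month pools stayed close together and the 24-month pools were well apart from them, with a change of 0.80 ± 0.12 (adjusted p = 0.00881), although 1-month pool 2 had no present call. RAB22A, a RAB of early endosomes and of recycling tubules, gave 157, 130.5 and 122 at 1 month and 206, 239 and 237 at 24 months, a change of 0.68 ± 0.14 (adjusted p = 0.0205).

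The other RABs of the early endosome did not pass. RAB5A had signals of 666, 364 and 524 at 1 month and 769, 747 and 622 at 24 months, and its ages overlapped through 1-month pool 1 (change 0.48 ± 0.23, adjusted p = 0.176). RAB5C had signals of 268, 224 and 288 at 1 month and 181, 213 and 191 at 24 months. All older pools lay below the calves' pools, and the change of -0.38 ± 0.14 missed the threshold (adjusted p = 0.105).

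Among the 6 RABs of recycling and sorting 2 rose, RAB12 and RAB11B. RAB12, which takes part in the transport of the transferrin receptor to lysosomes, gave 1987, 1951 and 2503 at 1 month and 3802, 3159 and 3180.1 at 24 months. That is a change of 0.65 ± 0.15 (adjusted p = 0.0304) with no overlap between the ages. RAB11B, an isoform of the RAB of recycling endosomes, gave 252, 310.0 and 318 at 1 month and 469, 411 and 418 at 24 months, a change of 0.54 ± 0.14 (adjusted p = 0.0395). Like RAB12 and STX17, RAB11B was called in 1 of the 6 fits with an array left out. RAB11B also lost its call after quantile normalization of the main table, in both forms of the second table and with the actin covariate. RAB11A, its better known relative, was near level at 882, 876 and 746 at 1 month and 846, 831 and 891 at 24 months, with a change of 0.04 ± 0.13 and a 95% interval of -0.26 to 0.34. RAB4A, of rapid recycling back to the surface, was higher in all 24-month pools, at 55.1, 61.5 and 64.0 at 1 month and 84.8, 87.8 and 77.7 at 24 months. Its change of 0.38 ± 0.12 did not pass (adjusted p = 0.0677). RAB4B gave -0.09 ± 0.15, and RAB14, which works between the Golgi and endosomes, gave 0.08 ± 0.19, both with overlapping groups. RAB7A, the RAB of late endosomes and lysosomes, had signals of 299.9, 305 and 302 at 1 month and 399, 370.5 and 356 at 24 months. These did not overlap, but the change of 0.30 ± 0.12 did not pass (adjusted p = 0.116).

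**Figure D3:**
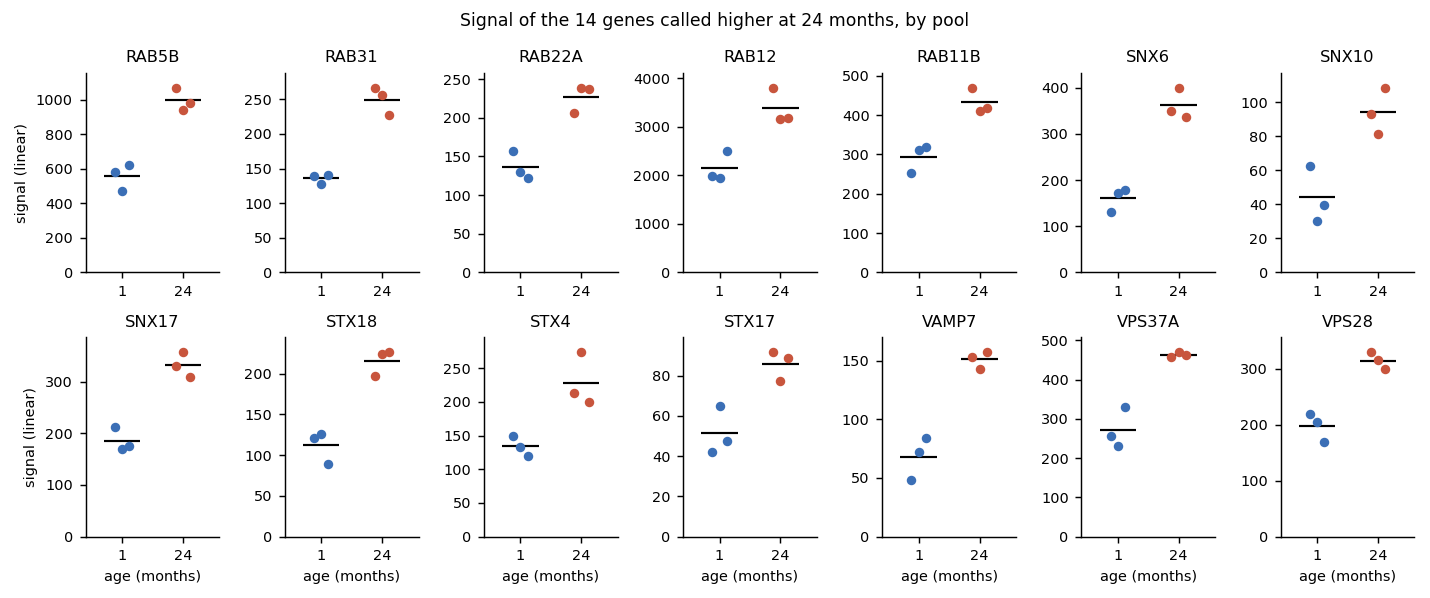
Linear array signal in each of the 3 pools at 1 month (blue) and at 24 months (red) for the 14 genes called higher, with a bar at the mean of each age and every axis starting at 0. In each panel the 3 pools of 24 months lie above the 3 pools of 1 month.

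On their brightest probe sets none of the 7 RABs of the endoplasmic reticulum and Golgi passed in limma, at an unadjusted p under 0.05 either. Their median change was -0.28. RAB6A, of this group, gave 0.51 ± 0.26 there, but its other probe set was called higher at 1.58 ± 0.13 (adjusted p = 0.00295). With the actin covariate RAB6A was called higher on its brightest probe set too. RAB1A, which carries vesicles from the endoplasmic reticulum to the Golgi, gave 2093, 1525 and 1758 at 1 month and 1327, 1532 and 1323 at 24 months. Both ages overlapped, and the change was -0.35 ± 0.16 (adjusted p = 0.159), though RAB1A was called lower in the second table as deposited (-0.80). RAB34, linked to the Golgi and to lysosome position, had the lowest value of all members, with signals of 618, 144 and 165 at 1 month and 98.4, 143 and 86.4 at 24 months. Pool 1 of the calves, the pool with the highest fibroblast and adipocyte sums, stood far above the rest, and the difference of -1.10 ± 0.51 did not pass (adjusted p = 0.173). RAB2A, RAB18, RAB30 and RAB33B gave 0.10, -0.28, -0.61 and 0.46, and none of them passed.

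The 5 RABs of secretion and transport to the surface had 0 calls in limma, with 1 higher and 1 lower at an unadjusted p under 0.05. RAB8A, which moves GLUT4 vesicles in muscle cells, gave 141, 93.0 and 90.3 at 1 month and 69.6, 70.3 and 66.4 at 24 months, so the 24-month pools were all lower, with a difference of -0.53 ± 0.18 (adjusted p = 0.0806). The actin covariate took it to 0.04. RAB8B, its close relative, gave 322, 198 and 175 at 1 month and 323, 263 and 308 at 24 months, and the change was 0.38 ± 0.23 (adjusted p = 0.272). RAB26 gave 0.64 ± 0.26, RAB27A -0.43 ± 0.29 and RAB3D -0.25 ± 0.14, with adjusted p of 0.131, 0.326 and 0.259. Of these, RAB26 was called higher with the actin covariate. RAB28, a RAB of cilia, gave 79.9, 95.8 and 79.6 at 1 month and 61.0, 66.5 and 62.4 at 24 months. Here too the older pools were all lower, and the change of -0.35 ± 0.13 did not pass (adjusted p = 0.0963). RAB10 and RAB13, which also act on GLUT4 vesicles, were not analysed here.

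The 4 partner proteins named RAB gave differences from -0.21 to 0.21 on their brightest probe sets. RAB3GAP1, a subunit of a RAB3 and RAB18 regulator, gave 0.21 ± 0.18, RAB3IP, the exchange factor Rabin8 that activates RAB8, 0.18 ± 0.33, and RAB11FIP5, a RAB11 effector, 0.19 ± 0.28. RAB3IP ranged from 55.5 to 168 at 1 month and from 120.2 to 134 at 24 months, a wide and a narrow group that overlapped. For RAB11FIP2, which links RAB11 to the motor myosin V, the brightest probe set had no present call at 1 month although its signal was higher there, and no fold is given. It is described with the genes of several probe sets.

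Within the VPS genes the rises fell in ESCRT, the set of complexes that buds vesicles into endosomes and seals membranes. Of 7 ESCRT members 2 rose and 6 lay above 0, with a median change of 0.38. Among all tested genes 11.3% rose and 52.3% lay above 0. VPS37A, a subunit of ESCRT-I, gave 256, 231 and 329.7 at 1 month and 457, 470.1 and 462 at 24 months, with the older pools nearly identical and all higher (change 0.75 ± 0.15, adjusted p = 0.0205). VPS28, another ESCRT-I subunit, gave 219.5, 206 and 169.9 at 1 month and 330.0, 315 and 299 at 24 months, a change of 0.63 ± 0.14 (adjusted p = 0.0237). Neither VPS37A nor VPS28 was called with the actin covariate or in either form of the second table. VPS37B, the alternative to VPS37A in the same complex, gave 56.8, 52.7 and 149 at 1 month and 54.9, 51.3 and 49.4 at 24 months. One 1-month pool stood far above the others, and the change of -0.47 ± 0.33 did not pass (adjusted p = 0.345).

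The ATPase VPS4, which takes ESCRT filaments apart, is encoded by VPS4A and VPS4B. VPS4B gave 265, 353 and 553 at 1 month and 670.0, 745 and 598 at 24 months. Its change, 0.81 ± 0.26, exceeded that of any other VPS gene and missed the threshold (adjusted p = 0.0699) with wide 1-month pools. Without 1-month pool 3 it was 1.09 and was called, but the second table gave -0.31 as deposited and -0.26 after quantile normalization, and the actin covariate -0.30, none of them called. VPS4A gave 0.27 ± 0.17, and the ESCRT-II subunits VPS36 and VPS25 gave 0.38 ± 0.20 and 0.04 ± 0.13. None of these was called, while a dimmer VPS36 probe set was called higher at 0.61 ± 0.12.

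Retromer, which returns receptors from endosomes to the Golgi and the surface, had 0 of 3 subunits called in limma on their brightest probe sets. Of these 1, VPS29, was lower at an unadjusted p under 0.05. VPS35 gave 455, 462 and 383 at 1 month and 492, 458 and 516 at 24 months and VPS26A 666, 495 and 596 at 1 month and 569.6, 509 and 519 at 24 months, and in both the ages overlapped (changes 0.17 ± 0.13 and -0.12 ± 0.15). The dimmer VPS26A probe sets gave 0.55 ± 0.23 and 0.67 ± 0.19, and the dimmest was called higher (adjusted p = 0.0488). VPS29 gave 507, 551 and 465 at 1 month and 369.9, 315 and 431 at 24 months. All its older pools were lower, with a change of -0.44 ± 0.15 (adjusted p = 0.0892). The 4 subunits of HOPS and CORVET, the tethers of late and early endosomes, were read on their brightest probe sets. They gave -0.20 for VPS16, -0.00 for VPS18, 0.22 for VPS41 and 0.24 for VPS11. Of these, 0 passed in limma, also at an unadjusted p under 0.05. A dimmer VPS41 probe set was higher in all older pools, at 0.53 ± 0.20, and passed the unadjusted threshold without being called. For GARP and EARP, tethers at the Golgi and at recycling endosomes, VPS51 gave 0.36 ± 0.12 (adjusted p = 0.0802), VPS50 0.30 ± 0.13 and VPS52 -0.05 ± 0.21. On these probe sets VPS51 and VPS50 were higher in all older pools. A dimmer VPS50 probe set was called lower instead, at -0.68 ± 0.14 (adjusted p = 0.0189). VPS45, a partner of endosomal SNAREs, gave 0.29 ± 0.28 and VPS33B 0.00 ± 0.13. VPS72, a chromatin protein that carries the name without a role in vesicles, gave -0.14 ± 0.17.

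SNX6 was the single member called in each of the 6 fits with an array left out. It is a sorting nexin with a BAR domain, which bends membranes, and works with retromer. Its signals were 131, 173 and 178 at 1 month and 351, 399.7 and 336 at 24 months, and 1-month pool 1 had no present call. The change was 1.11 ± 0.16 (adjusted p = 0.00707), and in those 6 fits the adjusted p ran from 0.00523 to 0.0437. The second table gave 1.38 as deposited and 1.42 after quantile normalization, both called. With the actin covariate the change was 0.67 and the call was lost (adjusted p = 0.160).

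Of its partners in the same coat, SNX1, SNX2 and SNX5, 0 were called in limma, with SNX1 higher and SNX2 lower at an unadjusted p under 0.05. SNX5, which like SNX6 pairs with SNX1 or SNX2, gave 1101, 1007 and 987 at 1 month and 1037, 1113 and 982 at 24 months, level across the ages at 0.02 ± 0.12 with a 95% interval of -0.27 to 0.30. SNX1 gave 343, 243 and 362 at 1 month and 392, 611 and 407 at 24 months, higher in all older pools, and the change of 0.54 ± 0.23 did not pass (adjusted p = 0.138). SNX2 gave 455, 322 and 516 at 1 month and 326, 252 and 301 at 24 months, with a change of -0.51 ± 0.20 (adjusted p = 0.115). The 3 other members with a BAR domain, SNX4, SNX7 and SNX9, gave -0.15, -0.54 and 0.16. SNX7 had the widest 1-month pools of all members, from 33.5 to 195.

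SNX17 and SNX10 rose among the 7 other sorting nexins. SNX17, which recycles integrins and receptors of the LDL family from endosomes, gave 212, 170.0 and 175 at 1 month and 329.6, 357 and 309.9 at 24 months, with 1 pool of the calves lacking a present call, a change of 0.79 ± 0.14 (adjusted p = 0.0122). SNX10, known for its part in endosomes and in the ruffled border of osteoclasts, was dim, at 62.5, 30.5 and 39.4 at 1 month and 93.4, 81.5 and 109 at 24 months. Its ages did not overlap and the change was 0.90 ± 0.22 (adjusted p = 0.0309), with a larger change on its second probe set, 1.13 ± 0.21. SNX24 gave 0.52 ± 0.21 (adjusted p = 0.130). The 4 others, SNX3, SNX11, SNX12 and SNX16, gave -0.14, 0.23, -0.02 and 0.05. SNX11 was without a present call in the calves and had one in each older pool, so it passed the filter through the older bulls, and its 95% interval, -0.04 to 0.50, includes 0.

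Of the 10 syntaxins 3 rose, each at a different membrane. STX4, the surface syntaxin onto which GLUT4 vesicles fuse in muscle and fat, gave 150.0, 133 and 119 at 1 month and 212, 274 and 199 at 24 months. All older pools were higher, the change was 0.70 ± 0.16 (adjusted p = 0.0286), and it was called in both forms of the second table, at 0.86 and 0.93. STX18, of the endoplasmic reticulum, where vesicles returning from the Golgi fuse, gave 122, 126 and 88.7 at 1 month and 197, 224 and 227 at 24 months, a change of 0.87 ± 0.16 (adjusted p = 0.0146). It was the rise that also passed with the actin covariate, at 1.30. STX17, which lets autophagosomes fuse with lysosomes, gave 41.8, 64.9 and 47.7 at 1 month and 91.7, 77.1 and 88.9 at 24 months, and the change was 0.61 ± 0.16 (adjusted p = 0.0428). Its probe set is of a type that can match several transcripts of the gene, and it has no other tested probe set.

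On their brightest probe sets the 5 endosomal syntaxins ran from -0.30 ± 0.20 for STX8 to 0.22 ± 0.21 for STX12. On these, 0 were called in limma and 0 passed at an unadjusted p under 0.05. A dimmer STX12 probe set was higher in all older pools, at 0.49 ± 0.17, and passed the unadjusted threshold without being called. STX7, of late endosomes, gave 955, 998 and 819.5 at 1 month and 874, 849 and 873 at 24 months, overlapping and almost level (-0.09 ± 0.13). STX6 and STX10, of the trans-Golgi, gave -0.02 ± 0.12 and 0.03 ± 0.19. STX2, another surface syntaxin, gave -0.00 ± 0.31 with 1-month pool 1 far above the others. STX5, which receives vesicles at the Golgi, was lower in all older pools, at 140.5, 82.0 and 110.4 at 1 month and 78.2, 81.4 and 78.6 at 24 months, and its change of -0.39 ± 0.18 did not pass (adjusted p = 0.180).

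VAMP7 rose among the 5 VAMPs. It is the VAMP of lysosomes and late endosomes, and it gave 48.0, 72.1 and 84.4 at 1 month and 153, 143 and 157 at 24 months. Its older pools were all higher and close together, with a change of 1.02 ± 0.18 (adjusted p = 0.0143), and it was called in both forms of the second table (1.16 and 1.21). VAMP3, of recycling endosomes, gave 575, 539 and 384 at 1 month and 734, 786 and 744 at 24 months. Its groups did not overlap and the change of 0.60 ± 0.17 lay just outside the threshold (adjusted p = 0.0528). It passed without 1-month pool 1 or 3, at 0.71 and 0.43. VAMP3 was also called higher with the actin covariate, with an offset of 50 and with no filter on dim probe sets. In the second table it was not called in either form. VAMP2, the main VAMP of GLUT4 vesicles, gave 74.6, 100.2 and 113 at 1 month and 101, 115 and 102 at 24 months, with overlap and a change of 0.14 ± 0.16 (95% interval -0.25 to 0.52). VAMP8, of late endosomes and autophagosome fusion, gave -0.49 ± 0.25 (adjusted p = 0.206), and VAMP5, a VAMP abundant in muscle, gave -0.44 ± 0.26 (adjusted p = 0.270), both with overlapping ages.

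Close relatives that share a number were compared within arrays. For each of 8 pairs, of which 3 share the RAB5 genes, the log2 ratio of the pair was taken within each array and compared between the ages, which concerns unequal change and not which relative is the more abundant. The ratio of RAB5B to RAB5C was 1.07, 1.02 and 1.07 at 1 month and 2.46, 2.06 and 2.27 at 24 months, a shift of 1.21. That of VPS37A to VPS37B shifted by 1.22, that of RAB8A to RAB8B by -0.91, and that of RAB5A to RAB5C by 0.86. RAB11A to RAB11B shifted by -0.50, VPS4A to VPS4B by -0.55 and RAB4A to RAB4B by 0.47. In these 7 pairs the ratios of the ages did not overlap, and the two-sided exact permutation p was 0.1, again the smallest possible (0.114 adjusted over the 8 pairs). For RAB5A to RAB5B the shift was -0.34 and the ages overlapped (exact permutation p = 0.2). How often the ratios of other gene pairs separate the ages was not measured. RAB5B, RAB11B and VPS37A were themselves called higher, so their pair ratios are not separate findings. The ratios are from the main table only, and in the second table the changes of RAB5B and VPS4B were below 0.

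**Figure D4:**
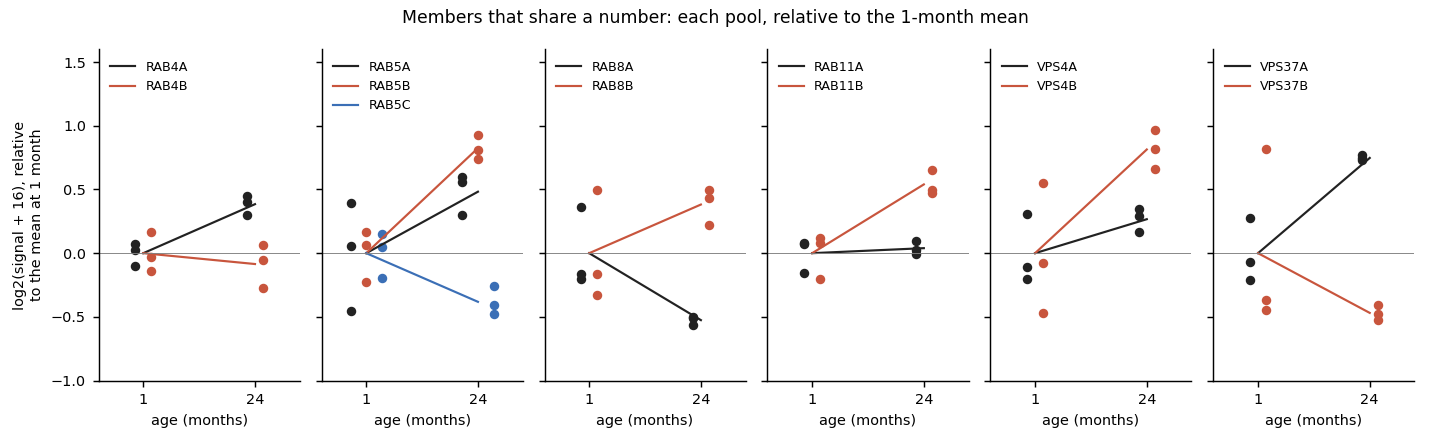
Members that share a number, as log2(signal + 16) in each pool (points) relative to the gene's mean at 1 month, with lines joining the means of the ages. The mean at 24 months lies above the zero line for RAB5A, RAB5B, RAB8B, RAB11B and VPS37A, below it for RAB5C, RAB8A and VPS37B, and near it for RAB11A.

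Some members were read by several probe sets. Of 18 members with several tested probe sets, 14 had the same direction and 13 the same call on all of them. RAB6A, which carries vesicles through and from the Golgi, gave 647, 414 and 299 at 1 month and 633, 568 and 663 at 24 months on its brightest probe set, not called at 0.51 ± 0.26. Its other probe set gave 101, 96.8 and 109 at 1 month and 293, 363 and 356 at 24 months, an increase of 1.58 ± 0.13 (adjusted p = 0.00295), the largest after VPS37A's dimmer probe set, 1.61 ± 0.24, among all member probe sets. The brightest one is of the type that matches several transcripts of the gene. VPS36 gave 0.38 ± 0.20 on the brightest and 0.61 ± 0.12 on the other probe set, of which the second was called.

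In 4 genes the probe sets pointed in opposite directions. RAB11FIP2 gave -0.21 ± 0.12 on its brightest probe set and 0.83 ± 0.12 on a dimmer one that was called (adjusted p = 0.00665). VPS26A gave -0.12 ± 0.15, 0.55 ± 0.23 and 0.67 ± 0.19 from the brightest to the dimmest, and the dimmest was called (adjusted p = 0.0488). VPS50 gave 0.30 ± 0.13 and, on a dimmer probe set called lower, -0.68 ± 0.14 (adjusted p = 0.0189). That dimmer probe set was the single fall called among the 98 tested probe sets of members. VPS4A gave 0.27 ± 0.17 and -0.24 ± 0.13, neither called.

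**Figure D5:**
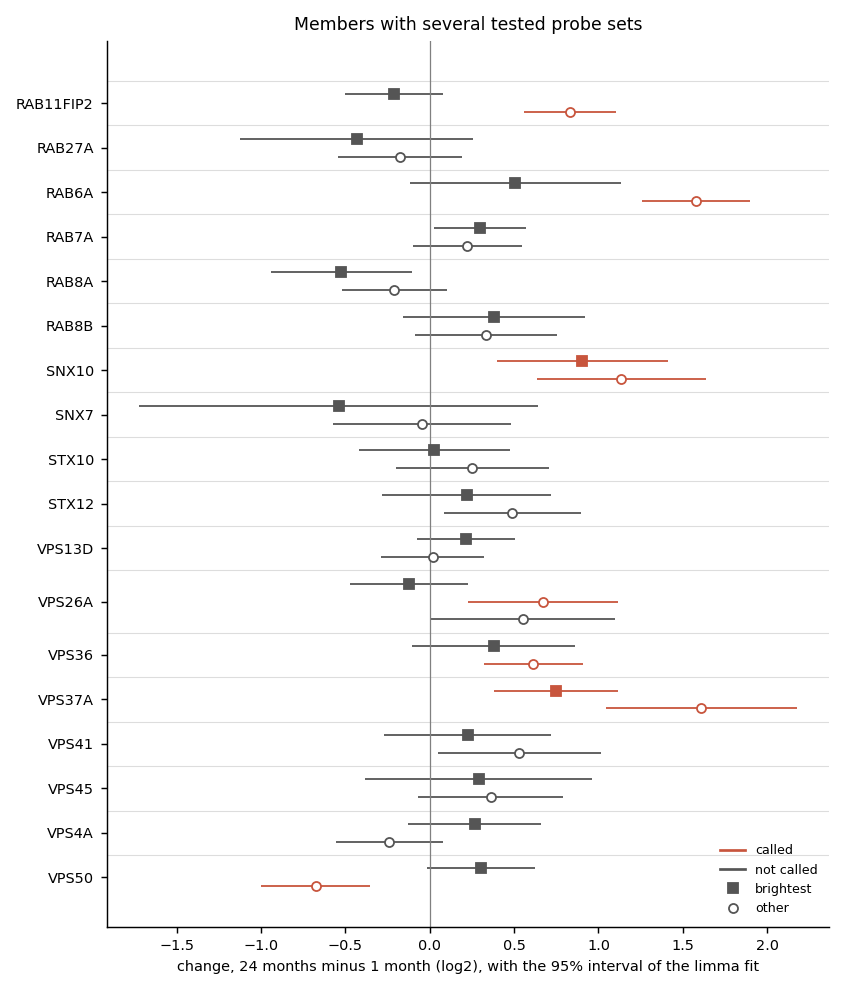
Change between the ages (24 months minus 1 month, log2) with its 95% interval for every tested probe set of the 18 members that have several, with squares for the brightest and open circles for the others and red for called ones. RAB11FIP2, VPS26A, VPS4A and VPS50 have probe sets on both sides of 0.

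The pools of calves differed more among themselves than those of older bulls. The SD of log2 signal was larger at 1 month for 70 of the 79 genes, 88.6%, and the same held for 83.5% of all tested genes. The median SD of the members was 0.28 at 1 month and 0.10 at 24 months, beside 0.27 and 0.11 for all tested genes. Within the 1-month group, pool 1 was the highest for 38 of the 79 members, pool 2 for 20 and pool 3 for 21. Over all tested genes pool 1 was the highest for 37.8%, so the members' 48.1% lies above that. SNX7, RAB34, RAB3IP, VPS37B and STX2 were the members with the widest 1-month pools (SD 0.65 to 1.11), and each had an SD of at most 0.33 at 24 months.

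The name rule also took in 22 genes that were not tested. They were 14 RAB GTPases, among them RAB3A, RAB3B and RAB3C of regulated secretion, RAB25 of epithelia, RAB27B, RAB35 and RAB40C, with RAB3GAP2, the VPS genes VPS26B, VPS26C, VPS39, VPS53 and VPS54, and SNX15 and STX19. RAB35, VPS39 and STX19 lay just outside the limit, each with 2 present calls on a probe set. The highest signal of those probe sets over the 6 arrays was 56.3 for RAB35, 28.9 for VPS39 and 11.1 for STX19. Just inside, with 3 present calls, were RAB11FIP2, SNX11, STX6 and VPS13D, with signals of 100.5 to 133, 40.5 to 56.4, 24.4 to 30.6 and 104 to 134. VPS13D too lacked a present call in the calves and passed the filter through the older bulls, and its difference of 0.21 ± 0.12 has a 95% interval that includes 0 (-0.07 to 0.50).

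Genes that work with these families were read from 8 lists written from textbook knowledge. At an unadjusted p under 0.05 in limma, rises and falls numbered 11 and 1 among RAB regulators and 6 and 1 among SNARE partners. They numbered 7 and 4 among coats and adaptors, 3 and 0 in the ARF family and 3 and 2 in the GLUT4 list. Tethers had 4 and 0, ESCRT genes outside the VPS names 8 and 2, and membrane repair 4 and 5. Of all 6423 tested genes, 1282 were higher and 892 lower at that threshold. Among 31 tested regulators of RABs 5 rose and 0 fell, with a median of 0.16. RABGGTA, a subunit of the enzyme that attaches the lipid anchor to RABs, gave 118, 146 and 88.4 at 1 month and 392, 509.9 and 339 at 24 months, a rise that was larger than the other 4, at 1.69 ± 0.22 (adjusted p = 0.00557). TBC1D20, which inactivates RAB1 and RAB18, rose by 0.97 ± 0.13 and RABEP1, rabaptin-5, an effector of RAB5, by 0.85 ± 0.21. MON1A, part of the exchange factor of RAB7, and TBC1D7, a subunit of the TSC complex, rose by 0.74 ± 0.16 and 0.63 ± 0.16. GDI2, which extracts RABs from membranes, gave -0.16 ± 0.18 and TBC1D4, the RAB regulator downstream of insulin, 0.11 ± 0.26.

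Among 19 partners of SNAREs 3 rose and 0 fell, with a median of 0.19. STXBP5, tomosyn, rose by 1.09 ± 0.14, NAPG, gamma-SNAP, by 0.73 ± 0.12 and SCFD2 by 0.54 ± 0.15. SNAP23, which completes the surface SNARE complex with STX4, gave 0.19 ± 0.18 and was not called.

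Outside the VPS names 3 of 22 ESCRT genes rose and 1 fell, with a median of 0.20. CHMP1B and CHMP3, of the ESCRT-III filament, rose by 0.93 ± 0.21 and 0.59 ± 0.14. CHMP4C, of the same filament, was called with signals of 94.7, 113 and 98.4 at 1 month and 167, 179 and 175 at 24 months and a difference of 0.69 ± 0.12 (adjusted p = 0.0137). It lacked a present call in all calves' pools and passed the filter through the older bulls alone. STAM2, of the ESCRT-0 complex that first binds ubiquitinated cargo, gave 183, 229 and 170.4 at 1 month and 113, 101 and 104 at 24 months and fell by 0.78 (adjusted p = 0.0152). TSG101, the core subunit of ESCRT-I with VPS28 and VPS37A, gave 1445, 1338 and 1637 at 1 month and 1428, 1356 and 1404 at 24 months. Its ages overlapped, at -0.07 ± 0.13.

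The coat and adaptor list had 4 rises and 0 falls among 46 tested genes and a median of -0.03. EPS15, an endocytic adaptor, rose by 1.11 ± 0.26, and GGA1, an adaptor of the trans-Golgi, by 0.64 ± 0.15. AP3S2 and AP2S1, small subunits of the adaptor complexes AP-3 and AP-2, rose by 0.50 ± 0.13 and 0.43 ± 0.12. Of 18 ARF family genes 1 rose, GIT2, which inactivates ARFs, by 0.46 ± 0.13, and 0 fell, with a median of -0.04, and ARF1 gave 0.45 ± 0.17 without a call. Of 20 genes of the exocyst and Golgi tethers 2 rose and 0 fell, GOLGA4 by 0.72 ± 0.17 and BLZF1 by 1.01 ± 0.24, with a median of 0.17. In the list of GLUT4 storage vesicles 1 of 11 rose, PIK3R1, a subunit of phosphoinositide kinase, by 0.98 ± 0.13, and 0 fell, with a median of 0.14. EXOC7, of the exocyst, missed the threshold there at 0.66 ± 0.19 (adjusted p = 0.0501). SLC2A4, which encodes GLUT4 itself, gave 157, 225 and 222 at 1 month and 147, 198 and 158 at 24 months, overlapping and not called (-0.24 ± 0.18).

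In the list of membrane repair and T-tubules, the inward folds of the fibre surface, 3 of 16 genes rose and 1 fell, with a median of -0.10. BIN1, which shapes T-tubules, gave 2249.7, 2175 and 2306 at 1 month and 4398, 4559 and 4193 at 24 months, a rise of 0.96 ± 0.11 (adjusted p = 0.00478). CAPN3, the muscle calpain, rose by 1.73 ± 0.21 and PACSIN3, a membrane-bending protein of muscle, by 0.96 ± 0.27. EHD2, which stabilises caveolae, gave 325, 235 and 329 at 1 month and 137, 144 and 141 at 24 months and fell by 0.98 (adjusted p = 0.0101). At an unadjusted p under 0.05 in limma, 4 of the 16 genes were higher and 5 lower. CAV2, ANXA2, CAV1 and PACSIN2 gave -0.84, -0.70, -0.58 and -0.53, each lower in all older pools without being called. DYSF gave 0.40 ± 0.14, higher in all older pools and not called. In the 8 lists the share called higher ran from 5.56% in the ARF family to 18.8% in membrane repair, beside the 11.3% of all tested genes. The share called lower was 6.25% in membrane repair, 4.55% in the ESCRT list and 0% in the other lists, beside 5.78% of all tested genes.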

How the data were processed

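RNA pools of 3 bulls were amplified and labelled by the Affymetrix procedure, per the labels' protocols. The main table, named for dChip, holds linear intensity values that the authors normalized by a method not given in the sources used here, and detection calls. The authors also deposited a detection p-value for the calves' arrays, which was not used. A second deposited table holds intensity values of unstated normalization, with array medians of 15.4 to 21.2. Columns were matched to samples by title.

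Genes were named by the platform annotation, and the symbols of all 79 members are in the RefSeq table of ARS-UCD2.0. Of 24016 probe sets other than controls, the 13204 with at least 3 present calls were tested on log2(intensity + 16), whose array medians span 0.0308. The test was limma 3.58.1 (lmFit and eBayes, R 4.3.3), two-sided, with Benjamini-Hochberg adjustment across the 13204. The offset understates changes of dim probe sets, and 3 arrays per age limit precision. Pair ratios were tested with scipy 1.17.1.

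Members, lists and tests were chosen with earlier results of these data known. Genes named by rule were all called members, the 2 members of each class and 2 genes of each list with the smallest p, landmark members such as RAB4A and VAMP2, and members whose probe sets differ. All other genes, among them GDI2, TBC1D4, SNAP23, TSG101 and SLC2A4, were named after their values were seen. Alternatives covered normalization, offset, filter, table, variance model, actin covariate, probe set choice, a pool-number block and each array left out. Sequences and coordinates were not used here.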

Additional observations from a re-analysis of the deposited data

How the results depend on the processing

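Every change of a called member kept its sign under the 19 alternatives except that of RAB5B in the second table (-0.16 as deposited, -0.081 quantile normalized), and RAB11FIP2 turned to 0.90 and 0.96 there and was called. The causes were not tested. Beside 14 rises and 0 falls as reported, the actin covariate gave 5 and 1, and the second table gave 5 and 1 as deposited and 7 and 1 quantile normalized. Class medians moved beyond the spread between arrays with the actin covariate for partner proteins (0.68), VPS (0.34), SNX (0.49), STX (0.37) and VAMP genes (0.29). In the second table as deposited they were -0.11 for RAB GTPases, 0.035 for VPS, -0.11 for SNX, -0.25 for STX and 0.30 for VAMP genes, and after quantile normalization 0.078, -0.065, -0.21 and 0.41 for the last 4 classes. That table's median over all tested genes was -0.12 and -0.05. The VPS median was 0.12 with probe sets averaged, 0.17 with an offset of 50 and 0.17 with quantile normalization of the main table. With each array left out in turn, rises ran from 1 to 18 and falls from 0 to 6, where fewer arrays enter each fit. The medians then ran from -0.057 to 0.33 for partner proteins, from 0.013 to 0.22 for VPS, from -0.0019 to 0.26 for SNX and from -0.0089 to 0.25 for VAMP genes. The largest and smallest counts of rises came without 1-month pool 1 and without 24-month pool 2 or 3. Under the other settings, apart from the pool-number block, the rises numbered 12 to 17 and the falls 0.

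The ages share pool numbers 2 and 3, and no label says that a number pairs samples. Over the tested probe sets the deviations of same-numbered pools correlated at -0.18 and 0.04, and those of differently numbered pools at -0.09 to 0.17. With the pool number as a block, 0 members were called in either direction, 41 genes in all rose and 6 fell, and the STX median was 0.16. Whether the number marks a shared batch was not tested further.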
